A study of Mus musculus with 9 samples.

Results

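The comparison described here set the RNA recovered with wild type WDR5 directly against the RNA recovered with the WDR5 mutant F266A, without subtracting the input of either line. It used 6 of the 9 RIPiT-seq libraries of the study, namely WT IP 1 and 2, F266A IP 1 and 2, and the single input of each line, and all 9 libraries entered the fit. A gene entered when its RPKM, the reads per kilobase of transcript normalised to library size, was at least 1 in at least 2 libraries, which left 9787 of 24132 gene symbols. Every gene that differed between the IPs was then checked against the difference between the inputs.

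The cells were V6.5 mouse embryonic stem cells (ESCs), a hybrid mouse line, infected with lentivirus and grown out as single clones. The WT line carried human WDR5 with an N-terminal FLAG-HA tag, the F266A line carried tagged WDR5 with a phenylalanine to alanine change, and the empty vector line carried no cDNA. All lines kept their own mouse WDR5. The clones were chosen for tagged protein near the endogenous level, and the F266A construct was also shorter at its N terminus, so clone, point mutation and construct length cannot be told apart in this comparison. Cells were fixed with formaldehyde, and complexes were purified through FLAG and then through HA before the RNA was amplified and sequenced.

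WDR5 is a WD40-repeat subunit of the MLL and SET1 complexes, which methylate lysine 4 of histone H3 at active promoters. It also binds RNA, among them long noncoding RNAs that bring the complex to nearby genes, and F266 lies in the surface described as the RNA binding site. In ESCs, WDR5 works with the pluripotency network that keeps the cells self-renewing. In the comparison the question is which RNAs came down more with one protein than with the other, and the inputs give how much of each RNA the clone contained.

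The 4 IPs had an estimated 20500000 to 27300000 mapped reads and the inputs of WT and F266A had 42800000 and 37600000. The labels name no batch or date. ESC markers such as Pou5f1 and Nanog were present in all 9 libraries, and the summed RPKM of 12 ESC markers was 732 and 719 with WT and 624 and 728 with F266A. Values of an IP pair are those of IP 1 and IP 2, in that order, here and below. Nothing in the labels says that the paired IPs came from separate cultures, so p-values may measure technical spread only. F266A IP 1 stood apart from the other libraries of its line. The summed RPKM of the Y-linked genes Ddx3y, Uty and Eif2s3y was 0.0383 in F266A IP 1, against 7.21 in F266A IP 2 and 4.43 in the F266A input. It was 0.182 and 0.324 in the WT IPs, 0.228 in the WT input, and 7.41 to 9.48 in the empty vector libraries. The 20 primitive endoderm markers, genes of the extraembryonic lineage that can arise in ESC culture, summed to 22.8 in F266A IP 1, to 80.2 in F266A IP 2 and to 62.1 in the F266A input, with 23.4 to 30.9 in the libraries of the other lines. In such bulk libraries fewer cells of a type and less RNA per cell cannot be told apart. The labels do not say whether F266A IP 1 came from the same clone as the other F266A libraries, and this was not tested. Counts of calls are given with and without each F266A IP.

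The following small RNAs carry results described below, and their sequences are shown for that reason. Scarna3a, a guide RNA of the Cajal body, and Snord49a, a C/D box small nucleolar RNA (snoRNA), differed between the IPs against the direction of the inputs. Capitals mark the ACA near the 3′ end of Scarna3a and the TGATGA and CTGA of the C and D boxes of Snord49a, read 5′ to 3′ from the mm9 genome (NCBIM37) at chr1:161270414-161270553 and chr11:62416952-62417023, both on the plus strand.
Scarna3a: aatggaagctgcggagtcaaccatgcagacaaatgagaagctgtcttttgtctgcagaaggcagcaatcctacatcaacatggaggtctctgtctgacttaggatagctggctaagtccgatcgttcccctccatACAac
Snord49a: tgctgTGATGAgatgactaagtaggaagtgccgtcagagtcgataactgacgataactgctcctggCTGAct

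Of the C/D box snoRNA genes with a position, 33 of 55 had TGATGA in the first 20 bases and 54 of 55 had CTGA in the last 20, and 34 of 41 H/ACA and Cajal body RNA genes had ACA in the last 8. Mir695 and Mir682 were the microRNA genes that differed between the IPs, and their mature sequences are given from RefSeq (GRCm38.p6) with the seed, bases 2 to 8, in capitals. The RPKM of such a row counts reads over the hairpin locus and not the mature microRNA.
mmu-miR-695: aGAUUGGGcauaggugacugaa
mmu-miR-682: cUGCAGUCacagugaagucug

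The hairpin of Mir682 is printed as well because 48 of its 96 bases, in capitals, are identical to a stretch of the Rpl37a mRNA. In GENCODE M1 the hairpin lies wholly within an exon of the pseudogene Gm4149, and reads of this stretch cannot be told apart from those of the ribosomal protein mRNA.
Mir682 hairpin: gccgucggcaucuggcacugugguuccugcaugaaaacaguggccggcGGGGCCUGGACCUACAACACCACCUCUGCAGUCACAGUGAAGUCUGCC

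The RNA of 114 genes differed between the WT and F266A IPs (limma, adjusted p under 0.05), which is 1.16% of the 9787 genes tested. It was higher in the WT IPs for 76 genes (0.777% of those tested) and lower for 38 (0.388%). The higher genes had a median difference of 0.99 on the log2(RPKM + 1) scale, which understates the change of genes with low RPKM, and the lower genes one of -0.86. Over all genes the median difference was 0.01 and the median standard error 0.136. The highest and lowest adjusted p among the calls were 0.0494 and 0.0279. The number of calls rested on single libraries. It was 0 without WT IP 1 and 0 without WT IP 2, where limma still gave 1487 and 1147 genes an unadjusted p under 0.05, against 1514 with all libraries. It was 196 without F266A IP 1, of which 72 were among the 114, and 70 without F266A IP 2, of which 45 were among the 114. The direction of all 114 genes was the same in each of these 4 fits. With the spread taken from the 4 IPs of WT and F266A only, limma called 0 genes, with 1184 at an unadjusted p under 0.05 and a lowest adjusted p of 0.0728.

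Of the 43 called genes that the naming rule covers, 23 were also called in both fits that leave out an F266A IP. Without F266A IP 1, 11 lost the call, with adjusted p-values of 0.0505 to 0.0899 in limma. These were Hnrnpa2b1, Peg10, Dok2, DQ267100, Snord49a, Rpl14, Rpl37a, Mir682, Zfp600, Fam25c and Csrp1. Without F266A IP 2, 19 lost it, with adjusted p-values of 0.0504 to 0.0930. These were the same genes except Csrp1, and in addition Lefty2, Klf2, Myl9, Duxbl1, Mir695, Scarna3a, Snord22, Tdrd12 and Eid3. The values of the genes below are to be read with these losses.

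The inputs differed in the same direction as the IPs for 112 of the 114 genes. For 105 of the 114 the input difference was at least 0.5 times as large as the IP difference, and for 48 (42.1%) it was the larger of the pair. Among all genes tested, 68.6% had an input difference of the same sign, 58.7% one of that sign at least 0.5 times as large, and 62% an input difference larger than the IP difference. Over the 9787 genes, Pearson's r between the IP and the input difference was 0.71 and Spearman's rho was 0.62. These are descriptions across genes of 1 input library per line. The input difference had a median of 0.11 over all genes, and after centring on it the count of 105 became 100. The match with the inputs depended on the F266A library used. Without F266A IP 1, most calls still had an input difference of the same sign at least 0.5 times as large. Without F266A IP 2 the share was lower and nearer to the 58.7% of all genes tested. In that fit F266A IP 1, which differed from the F266A input as described above, stood alone for its line. When each line's input was subtracted within the fit, limma called 0 genes (0%), and 259 of 9787 had an unadjusted p under 0.05. The median standard error of the subtracted difference was 0.236, and the spread of the inputs in it was taken from the IPs because an input had no replicate.

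**Figure D1:**
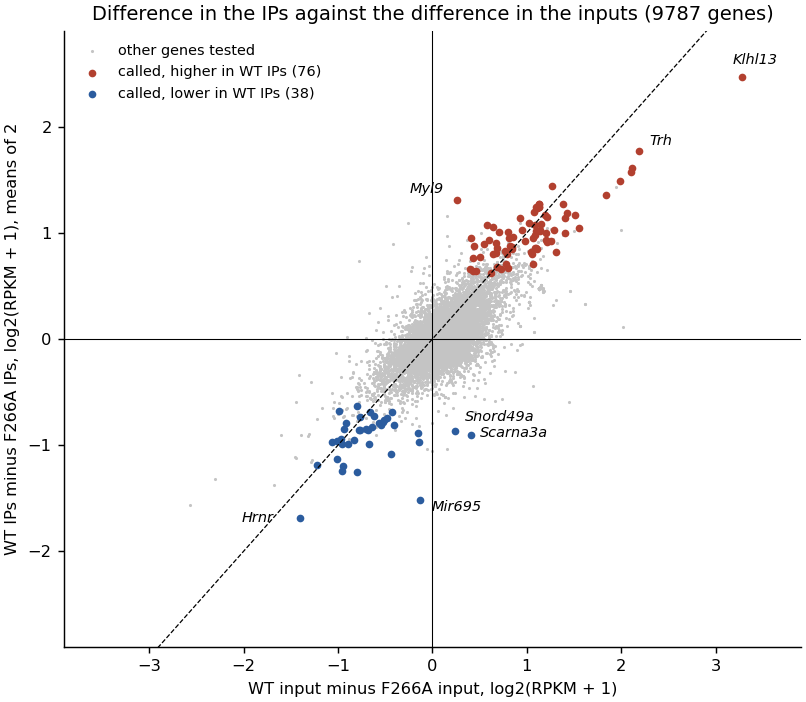
Difference between the WT and F266A IPs (y axis, means of 2 libraries) against the difference between the WT and F266A inputs (x axis, 1 library each), both in log2(RPKM + 1), for 9787 genes; the dashed line marks equal differences. The 76 genes called higher (red) and 38 called lower (blue) lie along that line, apart from Scarna3a and Snord49a in the lower right and a few genes near the vertical axis such as Mir695 and Myl9.

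The WDR5 gene itself was read in all libraries. The RPKM of mouse Wdr5 was 12.9 and 11.8 with WT, 8.79 and 8.18 with F266A, 9.34 and 10.5 with the empty vector, and 9.54, 5.85 and 8.05 in the inputs of WT, F266A and empty vector. The WT IPs lay above the F266A IPs, but the difference of 0.49 ± 0.12 (SE) had an adjusted p of 0.117 in limma and the inputs differed by 0.62. The tagged proteins were encoded by human cDNA. Whether its reads also mapped to mouse Wdr5 was not tested, so these values cannot be assigned to the transgenes or to the mouse gene alone.

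The largest differences among the higher genes were in genes with little RNA in the F266A input. Klhl13, an adaptor of a CUL3 ubiquitin ligase that acts in mitosis, had an RPKM of 27.4 and 29.5 with WT and 7.54 and 2.31 with F266A, a difference of 2.47 ± 0.36 (SE). Its inputs stood at 24.1 in WT and 1.59 in F266A, a difference of 3.28, and the empty vector IPs at 29.1 and 28.2. Thus the F266A libraries were low in IPs and input alike. The F266A IP at 7.54 was closer to WT than the F266A input was, whereas the F266A IP at 2.31 lay near that input. Without the F266A IP at 7.54 the difference between the IPs was 3.15, near the 3.28 of the inputs. Trh, the precursor of thyrotropin-releasing hormone, had an RPKM of 34.1 and 33.1 with WT and 12.5 and 6.58 with F266A, with 21.4 and 3.899 in the inputs. Ifitm1, an interferon-induced membrane protein of early germ cells and ESCs, had 31.4 and 34.4 against 12.03 and 8.997, with 27.5 and 5.62 in the inputs. In each of these genes the WT and F266A IPs did not overlap, which was so for 114 of 114 called genes and for 41.3% of all genes tested.

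Fxyd6, a regulator of the sodium pump, and Ephx2, the soluble epoxide hydrolase, differed by 1.61 and 1.49 between the IPs and by 2.11 and 1.99 between the inputs. Ckb, the brain-type creatine kinase, differed by 1.27 in the IPs and 1.38 in the inputs. The Duxbl homeobox genes made up 8 of the 76 higher rows, with differences of 1.20 to 1.27. Their rows are near-identical copies that share reads, 6 of them being identical to another row in all libraries, so they count as 1 locus with RPKM of 2.51 to 3.44 with WT and 0.316 to 1.05 with F266A. The adjusted p-values of Klhl13, Trh, Ifitm1, Fxyd6, Ephx2 and the Duxbl rows lay between 0.0279 and 0.0383 in limma.

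Genes of the pluripotent state were among the calls, and all of them were also lower in the F266A input. Klf2, a Krüppel-like factor of the naive network, had an RPKM of 6.09 and 5.26 with WT and 2.96 and 1.75 with F266A. Its difference was 1.01 ± 0.18 (SE; limma, adjusted p = 0.0451), against 1.14 in the inputs. Tcl1, a coactivator of AKT, had 4.73 and 5.21 against 1.45 and 2.0, with inputs of 4.002 and 1.63. These 2 were the only calls among 20 tested naive pluripotency factors. Of the 20, 15 had a difference above 0, as had 5098 of all 9787 genes tested. Over all genes tested, 0.777% were called higher and 0.388% lower. The counts of calls in lists, here and below, are to be read beside these shares. The naive list had a median of 0.22 in the IPs and 0.40 in the inputs, where all genes tested had 0.01 and 0.11. Pou5f1, the core factor OCT4, had an RPKM of 59.4 and 64.8 with WT and 36.3 and 52.0 with F266A, and its difference of 0.50 had an adjusted p of 0.220. By limma Nanog differed by 0.56 (adjusted p = 0.0777), Sox2 by 0.05 and Esrrb by 0.17, and none of these 3 passed the threshold. Sox2 did not keep its sign in every leave-one-out fit.

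Lefty2, an inhibitor of Nodal signalling, was the called member of 13 tested genes of that pathway, with a difference of 1.36 (limma, adjusted p = 0.0397). Without F266A IP 2 it was 0.99 with an adjusted p of 0.0504, and quantile normalization gave an adjusted p of 0.0519. Its RPKM was 5.73 and 7.36 with WT, 2.78 and 1.26 with F266A, and 5.83 and 0.906 in the inputs. Without F266A IP 1 its paralog Lefty1, outside the rule for named genes, was called as well. The 7 tested BMP and Id genes, which mark BMP signalling, all had a difference below 0, with a median of -0.26 in the IPs and -0.28 in the inputs, and 0 were called with all libraries. Bmp4, a ligand of this pathway, had an RPKM of 4.15 and 3.66 with WT and 5.77 and 11.4 with F266A, with 1.08 and 4.17 in the inputs. Its difference of -0.90 had an adjusted p of 0.139 with all libraries, and without F266A IP 1 it was -1.33 with an adjusted p of 0.0069. Myc, the growth-promoting transcription factor, had 4.63 and 2.33 against 9.21 and 7.598, with 1.26 and 5.19 in the inputs, and its difference of -1.11 had an adjusted p of 0.0668.

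Egr1, an immediate early transcription factor downstream of ERK, was higher in the WT IPs with 9.20 and 9.40 against 3.25 and 3.95. Its inputs were 8.06 and 2.97, so the IP difference of 1.17 ± 0.12 (SE) and the input difference of 1.19 were alike. Nab2, a corepressor that binds EGR proteins, had 3.69 and 3.94 with WT and 1.17 and 1.87 with F266A, but 1.15 and 0.620 in the inputs, a difference of 0.95 in the IPs against 0.41. Egr1 was the only call of 13 tested immediate early genes, whose median difference was -0.06. Of 9 tested germline genes, Tdrd12, a helicase of the piRNA pathway, was called, with 4.59 and 5.42 against 2.19 and 2.09 and inputs of 4.24 and 1.28. Psmg4, an assembly factor of the proteasome, was the only call of 45 tested proteasome genes, with a difference of 0.93 in the IPs and 0.60 in the inputs. Of 222 tested zinc finger genes Zfp600 and Zfp951 were called, a share near the 0.777% called higher over all genes. They differed by 0.85 and 0.95 in the IPs and by 1.1 and 1.06 in the inputs. Zfp600 belongs to a family of near-identical copies on chromosome 4, so its reads cannot be assigned to it with certainty.

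The mRNAs of cytosolic ribosomal proteins had differences above 0 nearly throughout the list. Of 82 tested genes, 81 had an IP difference above 0, whereas 5098 of all 9787 did, and their median difference was 0.56 in the IPs and 0.53 in the inputs. With the inputs subtracted the median was 0.05. It was 0.71 against F266A IP 1 and 0.46 against F266A IP 2. Relative to the empty vector line, which serves as the control for both, the IP median was -0.14 for WT and -0.73 for F266A. The single genes mostly did not pass the threshold: 3 were called, all higher. Without F266A IP 1 only Rpl39l was called, while Rpl37a and Rpl14 had adjusted p-values of 0.0667 and 0.0899 in limma. Rpl37a had an RPKM of 165 and 157 with WT, 76.4 and 89.4 with F266A, and 98.0 and 55.4 in the inputs. Rpl14 had 142 and 136 against 72.8 and 84.6, with inputs of 83.9 and 52.3. Rpl39l, a paralog of Rpl39 known from testis, had 2.02 and 2.77 against 0.0606 and 0.455, with inputs of 1.88 and 0.196. Ribosomal protein mRNAs have many processed pseudogenes that can share their reads. Mir682, called with a difference of 0.96, followed Rpl37a, with 0.95, over the identical stretch shown above. The inputs of Mir682 were 321 in WT and 177 in F266A. Its RPKM was 522 and 508 with WT and 245 and 283 with F266A, and its adjusted p without F266A IP 1 was 0.0745. The 76 tested mitochondrial ribosomal protein genes had a median of 0.05 in the IPs, and 0 of them were called.

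**Figure D2:**
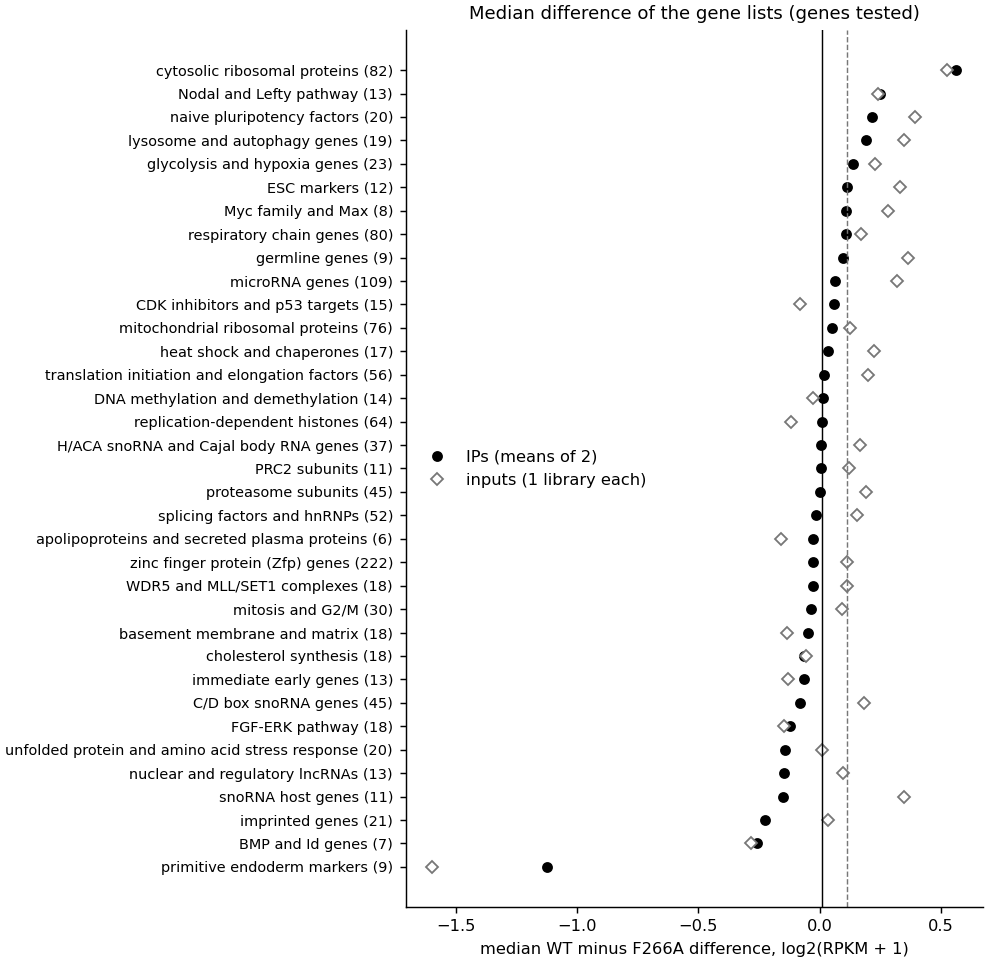
Median difference between WT and F266A in log2(RPKM + 1), in the IPs (filled circles, means of 2) and in the inputs (open diamonds), for each gene list with at least 5 tested genes, whose number is in brackets. Solid and dashed lines mark the medians over all genes tested, 0.01 in the IPs and 0.11 in the inputs. Cytosolic ribosomal proteins are highest and primitive endoderm markers lowest in both. The rank of the endoderm markers is partly set by the filter, which Gata4 passed through F266A libraries alone.

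Primitive endoderm markers had the lowest median of the lists, -1.13 in the IPs and -1.60 in the inputs, but 0 of the 9 tested markers were called with all libraries. The 2 F266A IPs differed here. Gata4, a transcription factor of this lineage named after its values were seen, had an RPKM of 0.695 in F266A IP 1 and 2.69 in F266A IP 2, with 1.90 in the F266A input. Gata4 was between 0.0688 and 0.171 in all WT and empty vector libraries, so it passed the filter through F266A libraries alone. Only 9 of the 20 listed markers passed the filter, and the median describes those. A marker that passes only through high F266A values lowers this median, so the rank among the lists is partly set by the filter. The median of the list was -0.33 against F266A IP 1 and -1.69 against F266A IP 2.

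Among the 38 genes that were lower in the WT IPs, most lay together on chromosome 6. Of 8921 tested genes with a single position in GENCODE M1, 65 lay between 50 and 84 Mb of chromosome 6 (mm9), and 24 of these, or 36.9%, were called lower in WT. Outside it, 11 of 8856 genes (0.124%) were called lower. In the interval 62 of the 65 genes had an IP difference below 0 and 59 an input difference below 0, and 0 were called higher. Among 165 windows of 10 Mb with at least 20 tested genes, the 2 with an IP median below -0.5 were chromosome 6 from 50 to 60 Mb and from 70 to 80 Mb, and the lowest elsewhere had -0.28. The interval was drawn after the values were seen and is given as a description.

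**Figure D3:**
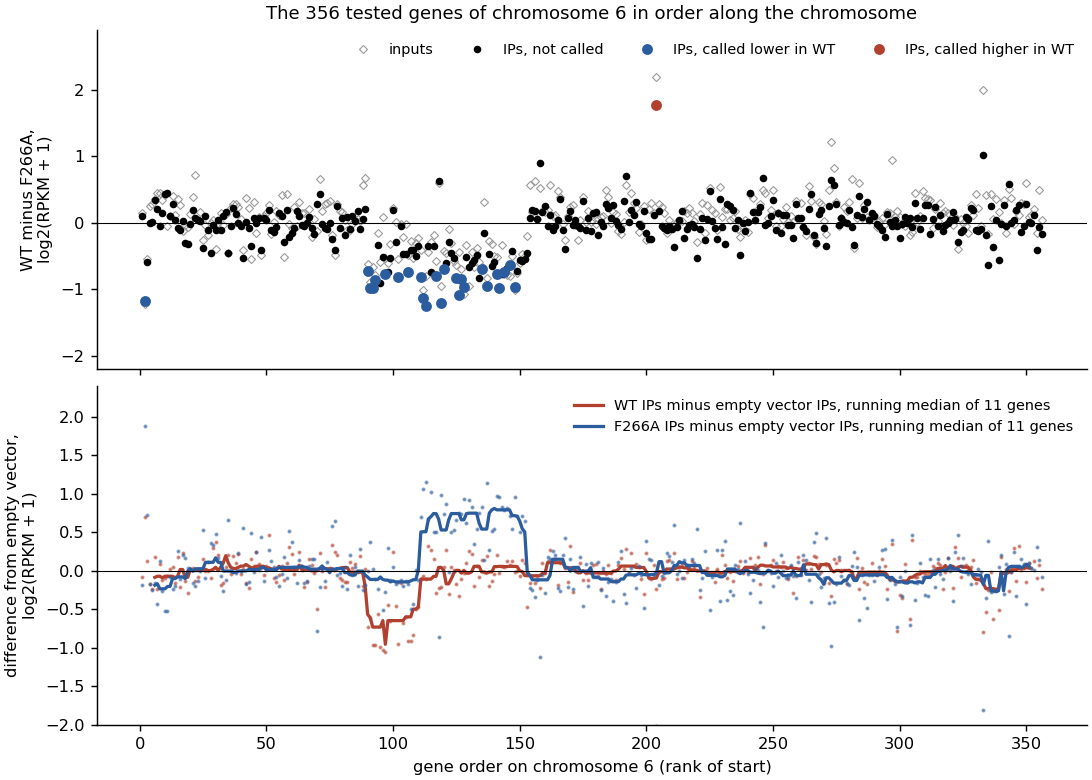
The 356 tested genes of chromosome 6 in order of their start (x axis, rank). The upper panel gives WT minus F266A in log2(RPKM + 1) for IPs (filled) and inputs (open diamonds), and the lower panel gives WT and F266A IPs each minus the empty vector IPs with a running median of 11 genes. A stretch in which WT is below the empty vector is followed by one in which F266A is above it, and the blue genes called lower in WT fall in both.

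The interval held adjoining stretches that differed from the empty vector in different lines. From 50 to 60 Mb, 21 genes had a median shift from the empty vector of -0.64 and -0.76 for the WT IPs and -0.59 for the WT input, after centring each library on all genes. The F266A libraries stood at -0.02, -0.22 and -0.11 there. From 60 to 84 Mb, 44 genes had a median shift of 0.75 and 0.63 for the F266A IPs and 0.62 for the F266A input, while the WT libraries stood between -0.06 and 0.02. From 84 to 90 Mb, 37 genes had shifts between -0.10 and 0.02 in the libraries of both lines, and 0 were called. The WT libraries thus lay below the empty vector over 50 to 60 Mb and the F266A libraries above it over 60 to 84 Mb, in the input as in the IPs. DNA copy number was not measured and its part in these shifts was not tested.

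Both WT IPs lay below both empty vector IPs in 19 of the 21 tested genes of the stretch from 50 to 60 Mb (90.5%), the 7 called ones included, against 17.8% of all genes tested. Hnrnpa2b1, a nuclear RNA-binding protein of splicing and RNA transport at chr6:51410433-51419893, had an RPKM of 20.9 and 15.1 with WT and 37.9 and 34.5 with F266A, with 36.0 and 34.9 with the empty vector. Its inputs were 12.7 in WT, 20.7 in F266A and 20.2 in the empty vector. Cycs, cytochrome c of the respiratory chain at chr6:50512562-50516537, had 1.802 and 1.91 against 5.03 and 4.32, with 3.64 and 3.09 with the empty vector. The Cycs inputs were 1.24 in WT and 3.15 in F266A. It was the only call among 80 tested respiratory chain genes, and Hnrnpa2b1 the only one among 52 splicing factors and hnRNPs. Hnrnpa2b1 differed by -0.92 without F266A IP 1 (limma, adjusted p = 0.0710) and by -1.05 without F266A IP 2 (adjusted p = 0.0714), so that the list then had 0 calls without F266A IP 1.

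Both F266A IPs lay above both empty vector IPs in 39 of the 44 tested genes from 60 to 84 Mb (88.6%), the 17 called ones included, against 25.9% of all genes tested. Mad2l1, the spindle checkpoint protein at chr6:66485384-66491027, had an RPKM of 10.8 and 9.79 with WT, 26.6 and 25.3 with F266A, and 11.3 and 11.1 with the empty vector. Its difference of -1.26 ± 0.12 (SE; limma, adjusted p = 0.0279) compared with -0.80 in the inputs, and it was the only call among 30 genes of mitosis. Hk2, hexokinase of glycolysis at chr6:82675019-82724448, had 6.52 and 6.47 against 14.5 and 13.2, with 6.95 and 6.38 with the empty vector. The Hk2 inputs were 4.90 in WT and 10.5 in F266A. Mthfd2, an enzyme of mitochondrial folate metabolism, had 3.61 and 3.75 against 8.29 and 7.97, with inputs of 2.23 and 5.49. Krcc1 and Ptcd3, a pentatricopeptide protein of the mitochondrial ribosome, lie in the same stretch and differed by -1.20 and -1.08 in the IPs and by -0.95 and -0.44 in the inputs. Against 24 lower calls in the interval with all libraries, 19 were made there without F266A IP 1 and 15 without F266A IP 2, and 0 without either WT IP, where limma called 0 genes in all.

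**Figure D4:**
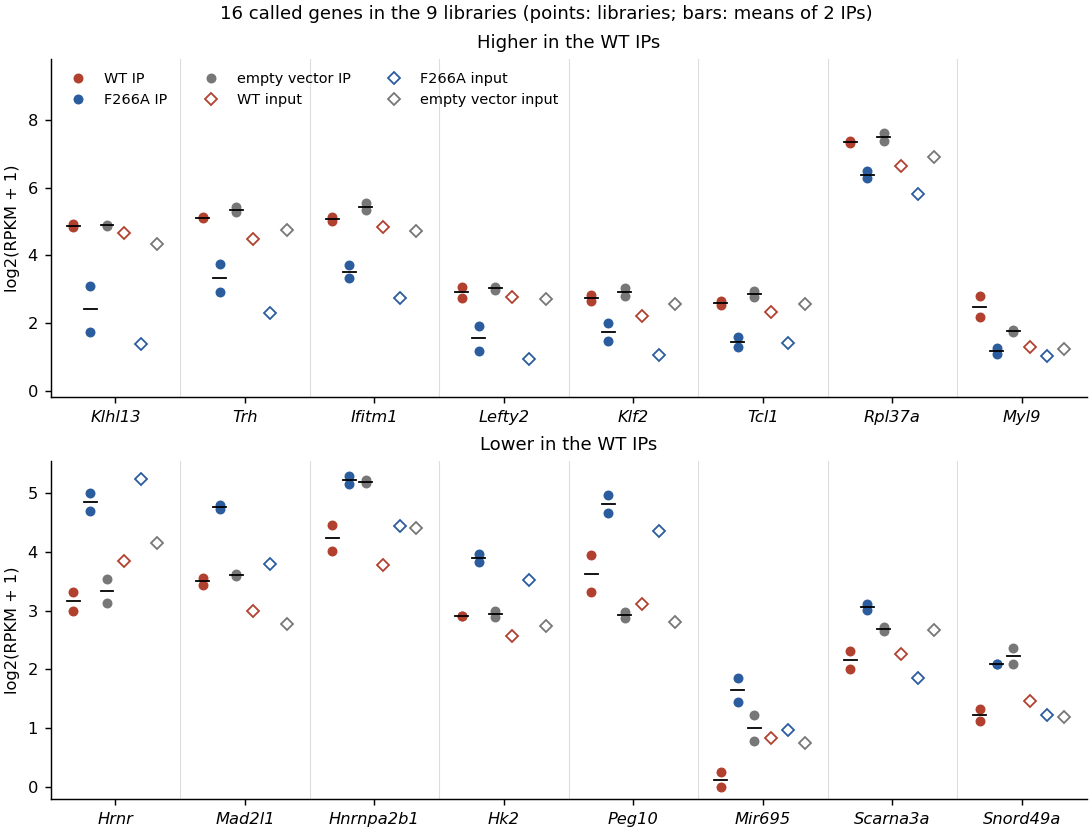
Values of called genes in the 9 libraries as log2(RPKM + 1), with IPs as filled circles, inputs as open diamonds and bars at the mean of each IP pair. For most genes the diamonds are ordered as the circles are; for Scarna3a and Snord49a the F266A input lies below the WT input while the F266A IPs lie above the WT IPs.

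Further regions were shifted in F266A, not all of them in both IPs. Over the 497 tested genes of chromosome 8, the median shift from the empty vector was 0.03 in F266A IP 1, 0.40 in F266A IP 2 and 0.37 in the F266A input, and at most 0.01 in the WT libraries. Over 61 genes of chromosome 5 from 140 to 150 Mb it was 0.38 in F266A IP 1, 0.03 in F266A IP 2 and 0.03 in the F266A input. Thus F266A IP 1 lacked the shift of chromosome 8 that the other libraries of its line had, and had one that they lacked. From 0 to 10 Mb of the X chromosome, 27 genes had shifts of -0.39, -0.29 and -0.29 in these 3 libraries. Of the 27, 4 were called higher in WT, against 0.777% of all genes tested. This window had the highest IP median of the 165 windows, 0.39, and its calls are given as a description. For comparison, the 458 genes of chromosome 1 had shifts between -0.01 and 0.02 in the 6 libraries. Chromosome 8 contributed 1 gene to each direction of the calls.

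**Figure D5:**
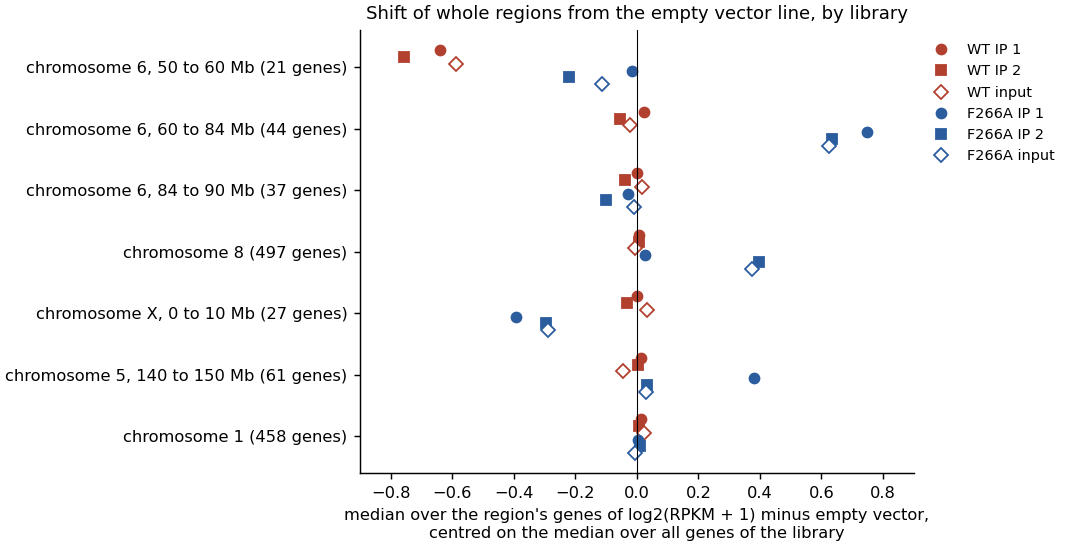
Median shift from the empty vector line of the genes in each region, in log2(RPKM + 1) centred on all genes (x axis), for each WT (red) and F266A (blue) library. On chromosome 6 the 3 libraries of a line fall together, whereas on chromosome 8 F266A IP 1 stands near 0 and F266A IP 2 and the F266A input near 0.4.

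Outside chromosome 6 the lower genes had few members in common. Hrnr, hornerin of the epidermal barrier, had the largest difference, with an RPKM of 6.94 and 9.003 with WT, 24.7 and 30.8 with F266A, and 13.4 and 36.9 in the inputs. Peg10, an imprinted gene derived from a retrotransposon, lies on chromosome 6 but far from the interval, at chr6:4697306-4710514. It had 14.4 and 8.91 against 30.2 and 24.3, with 6.35 and 6.90 with the empty vector. Its inputs were 7.68 in WT and 19.3 in F266A, a difference of -1.23. Its difference of -1.18 was -1.03 without F266A IP 1 and -1.34 without F266A IP 2, with adjusted p-values of 0.0878 and 0.0713 in limma. Dok2, an adaptor protein of tyrosine kinase signalling, differed by -1.25 in the IPs and by -0.96 in the inputs. In these fits its IP difference was -1.04 and -1.45.

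Only 2 of the 114 genes differed in the IPs against the direction of their inputs, and both were small guide RNAs. Scarna3a, whose sequence is shown above, had an RPKM of 3.97 and 3.04 with WT and 7.66 and 7.09 with F266A, but 3.81 in the WT input and 2.63 in the F266A input. The empty vector libraries held 5.32 and 5.57 in the IPs and 5.38 in the input. Thus the F266A IPs were above their own input and the WT IPs near theirs. Scarna3a rested on an estimated 11.3 to 24.2 reads in each of the 4 IPs, so these values carry counting error. With the inputs subtracted the difference was -1.31 ± 0.23 (SE), with an unadjusted p of 0.000394 and an adjusted p of 0.9998. Snord49a had 1.19 and 1.5 against 3.26 and 3.28, with inputs of 1.75 and 1.33 and empty vector IPs of 3.25 and 4.17. Its IPs in F266A and the empty vector, which has no tagged protein, were thus alike and above those of WT. It rested on few reads, an estimated 2.34 to 5.77 in each of the 4 IPs, and its adjusted p was 0.0505 without F266A IP 1 and 0.0736 without F266A IP 2.

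Scarna3a lies in an intron of Rfwd2, an E3 ubiquitin ligase gene, and Snord49a in an intron of the noncoding host gene 2410006H16Rik. The hosts, looked up after the calls were seen, were not called: Rfwd2 differed by -0.06 and 2410006H16Rik by 0.39 between the IPs. The group as a whole did not follow these members. Of 37 tested H/ACA and Cajal body RNA genes, 1 was called, and their median difference was 0.01. Of 45 tested C/D box snoRNA genes, Snord49a was called lower and Snord22 higher, with a median of -0.08. Snord22, which overlaps an exon of its host Snhg1, had an RPKM of 6.95 and 7.19 with WT, 4.02 and 3.897 with F266A, and 2.41 and 0.627 in the inputs. DQ267100, a snoRNA that the RefSeq table places among the snoRNA genes of chromosome 12, had 3.36 and 2.24 against 6.66 and 6.11, with near-equal inputs of 2.46 and 2.83.

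A further 7 called genes shared the direction of their inputs but had less than 0.5 times the difference there. Myl9, a regulatory light chain of smooth muscle and nonmuscle myosin, had an RPKM of 5.89 and 3.50 with WT and 1.37 and 1.11 with F266A, with inputs of 1.46 and 1.05 and empty vector IPs of 2.35 and 2.43. Its IP difference of 1.31 ± 0.19 (SE) exceeded the input difference of 0.26 by 1.05, the largest excess of a higher gene. The next largest excess of a higher gene was that of Nab2 (0.54), also one of the 7. Then came Fam25c (0.50), Csrp1, a LIM-domain protein that binds actin-associated proteins (0.43), and Tst, a mitochondrial sulfurtransferase (0.42). Fam25c, Csrp1 and Tst are not among the 7, as their input differences were at least 0.5 times as large. Mir695, within an intron of Pigu on the opposite strand, had 0 and 0.192 with WT and 1.71 and 2.61 with F266A, against 0.790 and 0.962 in the inputs. These are at most an estimated 6.93 reads in an IP. Eid3, which encodes a subunit of the SMC5/6 complex, had 1.33 and 1.40 against 2.91 and 3.86, with inputs of 3.48 and 3.98. With the inputs subtracted, limma gave 6 of the 114 called genes an unadjusted p under 0.05, and an adjusted p of 0.9998 for each. These 6 are 5.26% of the calls, beside 2.65% of all genes tested. The calls were chosen on the same IP values that enter the subtracted difference. These shares therefore cannot show a difference beyond the inputs.

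The higher and the lower genes were also set beside the empty vector IPs, which carry no tagged protein and serve as control for both lines. The 76 higher genes had a median difference from the empty vector IPs of 0.03 for WT and of -0.85 for F266A. The 38 lower genes had -0.09 for WT and 0.80 for F266A. The F266A IPs were farther from the empty vector IPs than the WT IPs were in 70 of the 76 higher genes. The same held in 28 of the 38 lower genes. No such count was made over all genes tested, and the genes were chosen on the WT and F266A IPs themselves. These medians and counts therefore cannot show that F266A departed from the empty vector more than WT did. The inputs of the called genes differed too, with a median WT minus F266A of 1.07 for the higher genes and -0.73 for the lower.

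The lists of WDR5 complex subunits, of PRC2 subunits and of nuclear and regulatory lncRNAs held 0 calls. Over all genes tested 1.16% were called, so lists this short would hold few calls or none at that share. Of 18 tested genes of WDR5 and the MLL and SET1 complexes, 0 were called by limma and the median difference was -0.03. Of 11 tested PRC2 subunits, which form the complex that methylates lysine 27 of histone H3, 0 were called. Of 13 tested nuclear and regulatory lncRNAs, 0 were called, and their median was -0.15 in the IPs and 0.10 in the inputs. It was -0.35 against F266A IP 1 and 0.001 against F266A IP 2. Xist, the lncRNA of X inactivation and lowest of these, had an RPKM of 2.15 and 2.07 with WT and 3.33 and 3.50 with F266A. Its adjusted p in limma was 0.102. Outside the list and the rule for named genes, 2810429I04Rik, a lincRNA in GENCODE M1, was called higher in WT. It differed by 0.77 in the IPs (limma, adjusted p = 0.0442) and by 0.51 in the inputs. Its RPKM was 3.28 and 4.19 with WT and 1.97 and 1.57 with F266A. The 39 Hox genes of the table did not reach the filter on RPKM.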

How the data were processed

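RNA of 3 ESC lines was measured as 1 input and 2 IPs per line. The authors mapped the reads with TopHat 1.1.3 (genome build mm9) and deposited a table of RPKM by gene symbol, computed with their own script on RefSeq genes and not replaced here by counts, which were not used. Each column was matched to a sample by its label. The kit does not mark strand. Depth was estimated from the smallest RPKM step and the exon length of each gene.

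Values were analysed as log2(RPKM + 1) for genes with RPKM of at least 1 in at least 2 of 9 libraries. limma 3.58.1 (R 4.3.3) was fitted to all libraries with 1 mean per line and fraction, with empirical Bayes moderation and trend, and the contrast of the WT and F266A IPs was adjusted by Benjamini-Hochberg over 9787 genes. An adjusted p under 0.05 was a call. The 3 IP pairs set the residual spread. A second contrast subtracted the inputs. The script was tested on simulated data. The alternatives were other pseudocounts, filters, centring, quantile normalization, the 4 IPs alone, no trend, a replicate block and each IP left out. Named genes were the 12 with the largest difference in each direction, the 5 with the largest excess over the input in each direction, the called members of gene lists and a few ESC, Y-linked and WDR5 genes, of which 1 is not reported here. Members and the 42 gene lists were chosen with earlier results of these data known. Gene positions (mm9) were read from GENCODE M1 for 8921 tested genes with a single entry, and microRNA sequences are those of RefSeq.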

Additional observations from a re-analysis of the deposited data

How the results depend on the processing

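The count of 114 calls was 114 to 132 with the other pseudocounts, with a mean RPKM of at least 1 and without the trend (limma), and 85 after median centring. Quantile normalization gave 78 calls, 56.4% of them higher in WT instead of 66.7%. A block on the replicate number gave 154, including all 114 and also Myc (adjusted p = 0.0272). The numbers are not stated to pair samples, and the deviations of the WT and F266A pairs correlated with r = 0.258. The count was 0 with no filter on low values (2425 genes at an unadjusted p under 0.05), with the 4 IPs alone and with the inputs subtracted, and ran from 0 to 196 when an IP was left out. Calls with an input difference of the same sign then numbered 60 to 195, those at least 0.5 times as large 45 to 180, and the lower calls of chromosome 6 from 50 to 84 Mb 15 to 19 without an F266A IP. The ribosomal protein median ran from 0.46 to 0.71. The causes were not tested.

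With the inputs subtracted these differences changed sign: Wdr5 -0.13, Klhl13 -0.81, Trh -0.42, Fxyd6 -0.50, Ifitm1 -0.53, Ephx2 -0.50, Lefty2 -0.48, Ckb -0.11, Egr1 -0.025, Klf2 -0.12, Snord22 -0.36, Tdrd12 -0.27, Zfp600 -0.25, Zfp951 -0.11, Nanog -0.26, Sox2 -0.68, Esrrb -0.10, Peg10 0.043, Mthfd2 0.042, Myc 0.34, Bmp4 0.41, Ddx3y 0.46, Uty 0.47 and Eif2s3y 0.40. With an IP left out, Sox2 ran from -0.14 to 0.24, Ddx3y from -1.27 to 0.095 and Eif2s3y from -2.04 to 0.21. Precision was limited by 2 IPs and 1 input per line. Rows of few reads such as Mir695, Snord49a, Scarna3a and Snord22 have counting error beyond the fit.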
